A study of Saccharomyces cerevisiae with 6 samples.

Results

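Nascent transcription of a whi5 deletion strain of budding yeast was compared with that of the wild-type haploid. The comparison used 6 of the 18 run-on arrays of the series, 3 for each of these strains, chosen by strain title and paired by the run-on number (1 to 3) in the deposited array names. The haploid is BY4741, a common laboratory strain, and the deletion strain is labelled whi5Δ (JCY0704 in the array names). Both were grown in rich medium (YPD) to exponential phase, and the labels name no other treatment. The labels do not give the ploidy of the whi5Δ strain or its parent, and do not say whether a strain's 3 arrays stem from separate cultures. The p-values therefore measure only the spread between arrays, which may be technical. The source label of the whi5Δ sample describes wild-type cells, while the title, the description and the strain label all give the deletion. The title was followed, and "whi5Δ" below means the arrays so titled. The other 4 strains of the series, a cln3 deletion and wild-type diploid, triploid and tetraploid strains, served to set the signal level and, where stated, as a comparison.

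Whi5 is a repressor that binds the SBF and MBF transcription factors in G1 and holds back the genes for the G1/S transition, until phosphorylation by cyclin and Cdc28 kinase, begun by the G1 cyclin Cln3, releases it. Cells without Whi5 pass Start at a smaller size, so the strain is used as a small-cell counterpart of the wild type. In genomic run-on, permeabilised cells extend the transcripts that polymerases have already begun, with radioactive UTP, so the label on a gene follows the number of engaged polymerases rather than the amount of stored mRNA. The question the design raises is how far the small-cell strain keeps the haploid transcription profile. The labelled RNA was hybridised to membranes of 6144 spots that carry whole open reading frames, and each membrane was also hybridised with genomic DNA. The files give spots by row, column and position and pair none of them with a gene, so neither the WHI5 spot nor the G1/S genes could be followed by name. Spots are therefore described by place and by level, and no sequence is shown.

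Median run-on signal in haploid runs 1, 2 and 3 was 39.0, 85.4 and 80.2 intensity units above background. In whi5Δ it was 48.0, 134 and 93.7 units. Run 1 was the dimmest in both strains. The share of spots at least 2 times above background (the files' S/N score) was 73.5%, 76.5% and 76.4% in the haploid and 79.2%, 81.4% and 78.7% in whi5Δ. All 3 whi5Δ arrays thus lay above all 3 haploid arrays, by a mean of 4.31 percentage points (exact two-sided permutation test, p = 0.1, the smallest that 3 against 3 arrays allow). Averaged over its arrays, the haploid (75.5%) had the lowest share of the 6 strains. The mean was 79.8% in whi5Δ, 77.8% in the cln3 deletion and 80.5%, 79.25% and 79.7% in the diploid, triploid and tetraploid. Triploid run 2, at 74.3%, and cln3 deletion run 2, at 76.46%, lay within the haploid range, whose upper end was 76.48%. The values compared below are log2 ratios of run-on to genomic DNA signal of the same membrane, centred on each array's median. The haploid arrays used membranes 12, 13 and 14 and the whi5Δ arrays 15, 16 and 17, so strain and membrane cannot be told apart within these 6 arrays. Centring removes any change common to all spots, and a change in polymerases per cell cannot be told from a change in the number of cells labelled.

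Arrays of whi5Δ and of the haploid correlated with each other about as strongly as arrays of one strain did among themselves, with an order that depended on whether pairs of the same run were counted. The strain means correlated across 5891 spots with r = 0.966 (Spearman's rho 0.955). Single arrays of different strains correlated with a mean r of 0.905, between 0.860 and 0.948 over the 9 pairs. Arrays of the same strain correlated with a mean r of 0.898, between 0.872 and 0.943 over the 6 pairs. The between-strain mean was higher by 0.00675, and exchanging strain labels gave an exact two-sided permutation p of 1. The 9 pairs include 3 of the same run-on number, which no pair within a strain can share. With only pairs of different number on both sides, the between-strain mean was 0.893 against 0.898 within strains, a difference of -0.0050 (exact permutation of strain within runs, p = 0.25, the smallest this design allows). These r values run over spots, not over independent replicates, and all arrays share the layout of the membrane and the differences between spots in DNA amount.

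Run-on number ordered the arrays more than strain did, through run 1. Pairs of different strains with the same run-on number had r of 0.899, 0.938 and 0.948. All 3 exceeded the mean of the between-strain pairs with different numbers. Run 1 stood apart in both strains. The pairs of haploid run 1 with haploid runs 2 and 3 had r of 0.886 and 0.872, against 0.943 between runs 2 and 3. In whi5Δ the corresponding values were 0.872 and 0.873, against 0.943. Among runs 2 and 3 alone, run-on number gave no such order. There, between-strain r was 0.938 and 0.948 for the same number and 0.940 and 0.933 for different numbers. With run 1 of both strains left out, a choice made after the data were seen, the between-strain mean minus the within-strain mean was -0.0031.

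**Figure D1:**
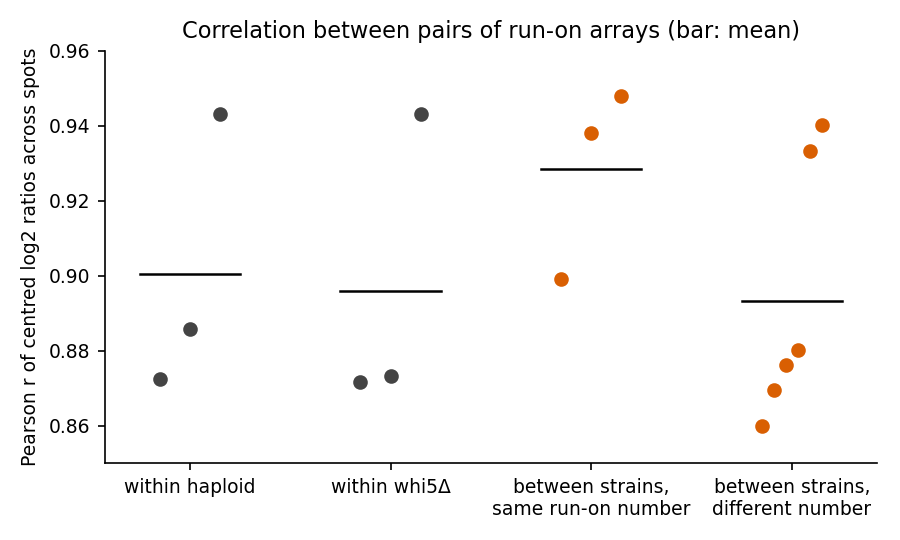
Pearson r of centred log2 ratios across 5891 spots for each pair of arrays, one point per pair, with the group mean as a bar. Between-strain pairs (orange) span 0.860 to 0.948, and within-strain pairs (grey) span 0.872 to 0.943.

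Spot by spot, most differences were small. Differences were estimated for 5933 spots in a limma fit of all 18 arrays with strain and run-on number as terms. The middle of the distribution was narrow: 5% of the spots lay below -0.48 and 5% above 0.43 on the log2 scale. The scaled median absolute deviation (MAD, a spread that outlying spots do not move) of the mean difference was 0.22. For single run-on pairs it was 0.40, 0.36 and 0.32. The estimate reached 2-fold in size at 97 spots (1.64%), 49 of them lower in whi5Δ and 48 higher, and 66 of the 97 were in the dimmest decile.

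The fit also bounds how large a difference could be. For 4983 spots (84.0%) the 95% confidence interval of the log2 difference lay wholly within 2-fold in either direction. For 2509 spots (42.3%) it lay within 1.5-fold. At 3 spots the interval lay wholly beyond 2-fold. The median standard error of a difference was 0.21, so a typical spot could not be bounded much more tightly than this with 3 arrays a strain.

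How tightly the profile was kept depended on signal level. Spots were ordered by their mean centred log2 run-on signal in the 12 arrays of the other 4 strains, an axis that uses neither the haploid nor the whi5Δ arrays, and divided into 10 deciles. The spread of the mean difference was 0.46 in the dimmest decile, 0.30 in the next and 0.23 in decile 3. From decile 5 to decile 10 it lay between 0.17 and 0.20. Differences between 2 arrays of the same strain narrowed in the same order, from a mean spread of 0.77 in the dimmest decile to 0.41 in the brightest. In every decile, the mean spread of a run-on pair between strains was below that between arrays within a strain, 0.67 against 0.77 in the dimmest decile and 0.30 against 0.41 in the brightest. Arrays of one strain always differ in run-on number, so these spreads also hold the difference between runs.

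The share of spots bounded within 2-fold followed the same order. It was 40.6% in the dimmest decile, 74.4% in decile 2 and 83.3% in decile 3. It reached 93.9%, 93.8% and 94.3% in deciles 7, 8 and 9 and was 89.6% in the brightest decile. Only 1.01% of spots in the dimmest decile, against 99.8% in the brightest, had an S/N of at least 2 on all 6 arrays. The dimmest decile therefore says little about either strain. The bound of 1.5-fold held for 58.5% of spots in decile 9 and for 41.4% in the brightest decile, where the differences were shifted to one side.

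**Figure D2:**
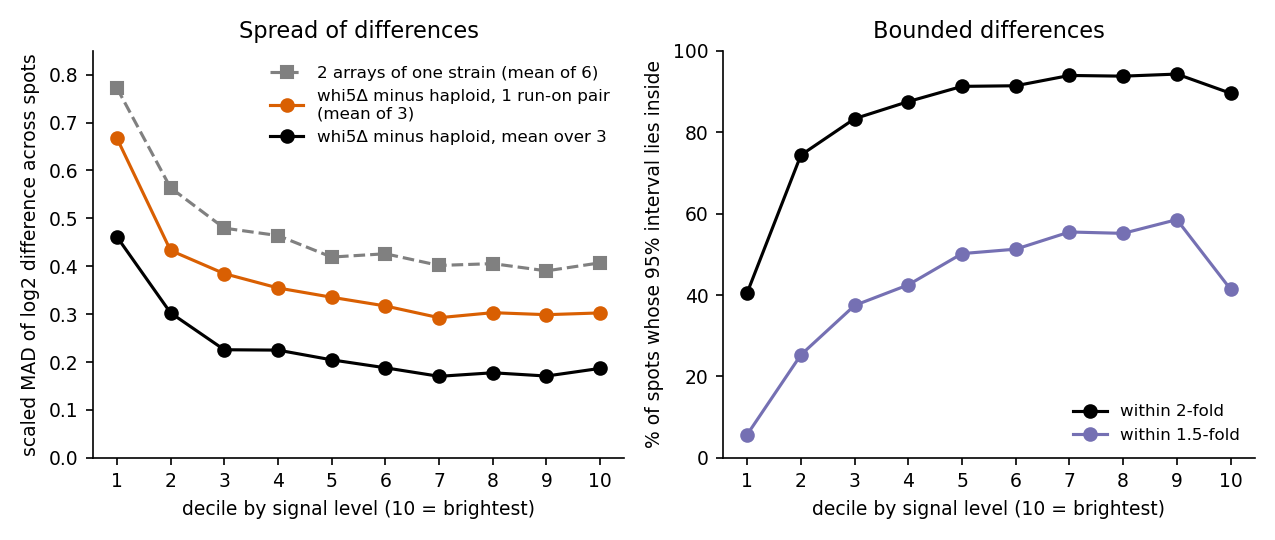
Left, scaled MAD of log2 differences across the spots of each decile of signal level, for 2 arrays of one strain (grey), 1 run-on pair of whi5Δ and haploid (orange) and the mean over 3 pairs (black). Right, share of spots whose 95% interval of the difference lies within 2-fold (black) or 1.5-fold (purple). The spread falls from 0.46 to 0.19 and the 2-fold share rises from 40.6% to 89.6% between the dimmest and the brightest decile.

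The brightest spots lay lower in whi5Δ in each run-on pair. The 2 groups of arrays overlapped in log2 ratio, but not in run-on signal before division by genomic DNA. In the brightest decile (594 spots) the median log2 difference was -0.17, -0.15 and -0.15 in run-on pairs 1, 2 and 3, a mean of -0.16 (SD 0.011, n = 3). The haploid arrays had medians of 1.28, 1.46 and 1.53 there and the whi5Δ arrays 1.15, 1.26 and 1.38. Each whi5Δ array was below the haploid array of its run, and whi5Δ run 3 lay above haploid run 1 (exact two-sided permutation test on the 3 against 3 arrays, p = 0.2, 0.9 after Benjamini-Hochberg adjustment over the 10 deciles). That test ignores the run-on pairs and cannot give a p below 0.1, and a sign-flip over 3 pairs cannot go below 0.25. Neither could reach 0.05, so the p-values do not decide whether the shift was present. In the other 9 deciles the mean of the pairs lay between -0.04 and 0.03. Without the division by genomic DNA the 2 groups of arrays did not overlap in the brightest decile. Medians of the centred log2 signal were 2.52, 2.54 and 2.509 in haploid runs 1, 2 and 3 and 2.326, 2.405 and 2.481 in whi5Δ runs.

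Within the brightest decile the shift was broad. The difference of strain means was below 0 at 473 of 594 spots (79.6%), against 3183 of 5933 (53.7%) over all spots tested. The paired difference was below 0 in all 3 pairs at 236 of the 594 spots and above 0 in all 3 at 17. Over all 5933 spots tested, these counts were 1001 and 729. The shift grew towards the top. The brightest 300 spots had medians of -0.19, -0.16 and -0.19 in the 3 pairs. The brightest 100 had medians of -0.32, -0.21 and -0.25, with 88 of the 100 lower. Without the division by genomic DNA the median of the brightest decile was -0.13, and quantile normalisation, which gives every array the same distribution of values, left -0.070. Without background subtraction the median was -0.040. In that setting the spread of the mean difference over all spots was 0.19, against 0.22 with subtraction. The reason for the smaller median was not tested. Leaving out run 1 of whi5Δ brought the median to -0.10.

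**Figure D3:**
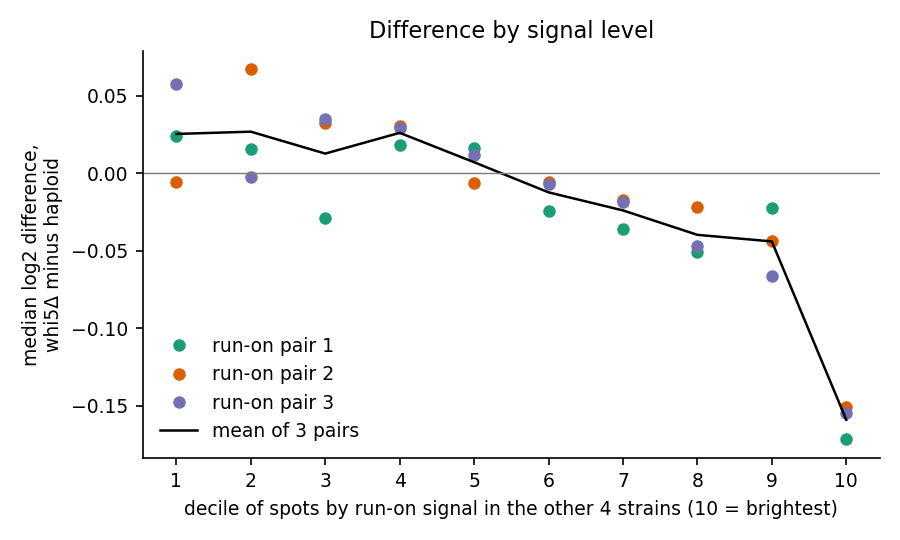
Median log2 difference, whi5Δ minus haploid, in each decile of spots by signal level, with one point per run-on pair and a line for the mean of 3 pairs. The brightest decile sits at -0.17, -0.15 and -0.15, and the other deciles have means between -0.04 and 0.03.

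The lower level of the brightest decile was found in every strain set against the haploid. These comparisons share the 3 haploid arrays. Relative to the haploid, the median was -0.16 for whi5Δ, -0.14 for the cln3 deletion, and -0.15, -0.13 and -0.18 for the diploid, triploid and tetraploid strains. Set against the cln3 deletion, whi5Δ differed by 0.01. The diploid, triploid and tetraploid differed from whi5Δ by 0.01, -0.01 and -0.02. In the contrast of whi5Δ with the mean of the other 4 strains the median of the brightest decile was 0.003. Averaged over its 3 arrays, the haploid had the highest median of the 6 strains (1.43, against 1.26 to 1.33 in the others), but its run 1, at 1.28, lay below some arrays of every other strain. That overlap depended on the division by genomic DNA. Before it, haploid run 1 had a median log2 signal of 2.52, below triploid run 3 (2.536) and above every other array outside the haploid.

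Over all spots, whi5Δ was the strain closest to the haploid. The spread of the difference of strain means was 0.22 for whi5Δ, 0.27 for the cln3 deletion, 0.27 for the diploid and 0.30 for both the triploid and the tetraploid. Among all 15 pairs of strains only triploid with tetraploid (0.18) and diploid with tetraploid (0.19) were narrower. The whi5Δ and haploid arrays shared no membrane, while the tetraploid shared 2 with the triploid and 2 with the diploid. The haploid shared 2 membranes with the cln3 deletion, 2 with the triploid, 1 with the tetraploid and 0 with the diploid, all wider pairs than that with whi5Δ. The order of these spreads was not tested, and comparisons with the haploid share its arrays.

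**Figure D4:**
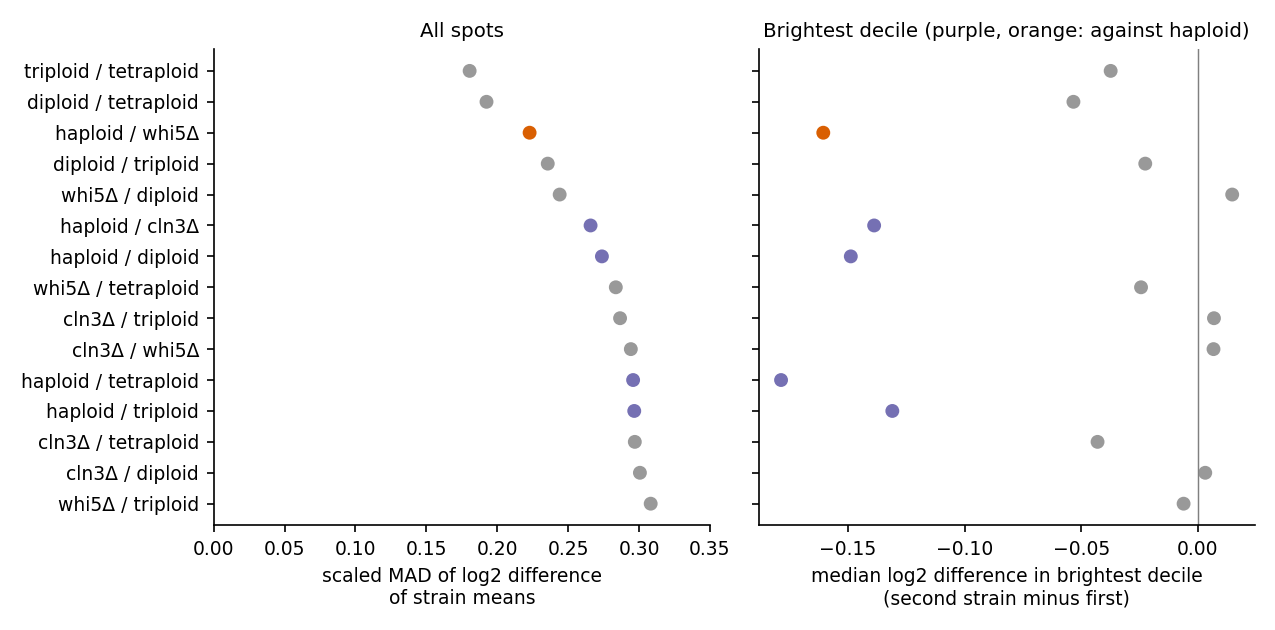
Left, scaled MAD of the log2 difference of strain means across spots for the 15 pairs of strains. Right, median log2 difference (second strain minus first) in the brightest decile for the same pairs. The haploid and whi5Δ pair (orange) has a spread of 0.22, the narrowest of the 5 pairs with the haploid (the other 4 in purple), and its brightest-decile median of -0.16 lies among those of the other haploid pairs.

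The differences that remained did not recur well from one run-on pair to the next. Across 5891 spots, the whi5Δ minus haploid differences of 2 run-on pairs, which share no array and no membrane, correlated with r = 0.05, 0.07 and 0.11. Without the division by genomic DNA the values were 0.13, 0.06 and 0.25. For the 4057 spots with S/N of at least 2 on all 6 arrays, r was 0.04, 0.09 and 0.18. In the brightest decile it was 0.14, 0.16 and 0.29. The same measure, with the division, for the diploid against the haploid gave 0.22, 0.24 and 0.34. These are descriptions across spots, which share arrays and local background.

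The dynamic range of the profile was slightly narrower in whi5Δ in each run-on pair, by less than the spread between arrays of a strain. The slope of each array against the mean profile of the other 4 strains (gain) was taken over spots with S/N of at least 2 on all 6 arrays. It was 0.936, 1.02 and 1.06 in the haploid and 0.902, 0.984 and 1.02 in whi5Δ. The difference of means was -0.04 (exact two-sided permutation test, p = 0.6), and the groups overlapped. The distance from the 5th to the 95th percentile of the log2 ratios was 4.23 ± 0.21 in the haploid and 4.14 ± 0.21 in whi5Δ (SD, n = 3; exact permutation p = 0.7). Within run-on pairs 1, 2 and 3 the gain differed by -0.034, -0.031 and -0.047 and the range by -0.089, -0.083 and -0.087. All 6 differences had one sign (exact sign-flip permutation over 3 pairs, p = 0.25 for both, the smallest that 3 pairs allow). Over all tested spots the slopes were closer, 0.899, 0.982 and 1.063 in the haploid and 0.887, 0.980 and 1.041 in whi5Δ. Their means differed by -0.012 (exact two-sided permutation test, p = 0.7). Before centring, the median log2 ratio was 0.82 ± 0.27 in the haploid and 0.75 ± 0.69 in whi5Δ (SD, n = 3), a difference of -0.07 (exact permutation p = 0.9). The whi5Δ arrays alone ranged from 0.04 to 1.43, and the sources used here give neither exposure nor labelled amounts, so the level of the whole profile was not resolved.

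Of the 5933 spots tested, 9 (0.152%) passed the limma test (Benjamini-Hochberg adjusted p below 0.05), and all 9 were lower in whi5Δ. An unadjusted p under 0.05 was reached by 298 spots, 183 lower and 115 higher, where 296.7 would be reached by chance. In the brightest decile 39 spots were lower and 1 higher at that unadjusted level. The 3 values of one strain lay wholly outside those of the other at 454 of 5891 spots (7.71%), 273 with whi5Δ below and 181 above. For 3 against 3 exchangeable values that share would be 0.1 by chance. The arrays also differ by run, so this share is only a guide. In the same fit and against the same haploid arrays, calls were made at 56 spots (0.944%) for the cln3 deletion, 57 (0.961%) for the diploid, 90 (1.52%) for the triploid and 135 (2.28%) for the tetraploid. The 9 calls fell to between 3 and 5 when any 1 of the 6 arrays was left out, and to 0 in limma with membrane as the only block (139 spots at an unadjusted p under 0.05) or when the fit held no other strain (445 spots).

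The 9 called spots fell into 2 kinds. Of the 9, 5 were in the brightest decile, and those 5 were also called lower than the haploid in each of the 3 polyploid strains. A direct contrast of whi5Δ with the mean of the other 4 strains, in the same limma fit, called 135 of 5933 spots (2.28%), 88 higher and 47 lower. None of the 5 bright spots was among them, and all 4 of the remaining called spots were, each lower in whi5Δ. The 9 spots were chosen by a contrast that uses the same whi5Δ arrays, so the 2 contrasts are not independent.

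The bright kind is shown by the spot at row 3, column 6, position 7, which had the largest fitted change among called spots that met the naming rule. Its centred log2 ratio was 0.06, 0.88 and 0.79 in haploid runs 1, 2 and 3 and -1.56, -0.89 and -0.47 in whi5Δ runs. All 3 whi5Δ values lay below all 3 haploid values, and run 1 was the lowest in both strains. The fitted difference was -1.55 (SE 0.27, limma, Benjamini-Hochberg adjusted p = 0.038). Against the haploid, the diploid differed by -1.27 (adjusted p = 0.038), the triploid by -1.41 (0.015) and the tetraploid by -1.44 (0.012). The cln3 deletion differed by -0.98 and was not called (adjusted p = 0.12). Against the other 4 strains together, whi5Δ differed by -0.27 (SE 0.21, adjusted p = 0.64). The whi5Δ call was lost without the block for run-on number (adjusted p = 0.56), with that block and membrane together (0.066), with membrane alone (0.97), without background subtraction (0.098), when the fit held no other strain (0.25), and when any 1 of the 6 arrays was left out (0.11 to 0.27).

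The other spot that the rule names on the lower side ranked 2 in signal level over all spots. Its log2 ratio was 1.29, 1.78 and 1.66 in the haploid and -0.15, 0.04 and 0.60 in whi5Δ, with no overlap. The fitted difference was -1.41 (SE 0.22, adjusted p = 0.022), and part of the spot was at the scanner's ceiling on 4 of the 6 arrays. This call was lost without the block for run-on number (adjusted p = 0.055), with that block and membrane together (0.080), with membrane alone (0.97), without background subtraction (0.057) and when the fit held no other strain (0.38). It was also lost when any 1 array other than whi5Δ run 3 was left out (0.082 to 0.17). Against the other 4 strains together, whi5Δ differed there by -0.13 (adjusted p = 0.83).

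The second kind is led by the spot at row 10, column 16, position 12, which was at background on the whi5Δ arrays and on no other run-on array. It lies outside the naming rule, since it had no value on one whi5Δ array, and was singled out after its values were seen. Its run-on S/N was 8.52, 13.3 and 14.03 in the haploid. In whi5Δ it was 0.235, 0 and 0.017. On the 12 arrays of the other 4 strains it lay between 7.06 and 18.3. The genomic DNA hybridisations detected the spot on all 7 membranes, with S/N between 3.46 and 10.2. Its run-on signal was thus at background on the 3 whi5Δ arrays and well above it on the other 15, while its DNA was present on the membranes that the whi5Δ arrays used.

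The centred log2 ratio of this spot was 0.24, 0.26 and 0.21 in the haploid. In whi5Δ only a bound can be given, and it puts whi5Δ at least 7.41-fold lower. For the bound, each whi5Δ array was given the lowest signal of any spot that reached S/N 2 on that array, which exceeded the signal measured at the spot, and the mean of these floors was set against the haploid mean. The limma fit gave an adjusted p of 0.0011 against the haploid, but it rests on whi5Δ ratios from 2 arrays whose signals were at background (S/N 0.235 and 0.017), and on a spot chosen for its values. It is no support beyond the S/N values above. The call was lost with membrane as the only block (adjusted p = 0.20) and when the fit held no other strain (adjusted p = 0.46). The 15 other spots of its block on the membrane differed by -0.10 to 0.74, and none of them was called. The files do not pair the spot with a gene, so which reading frame it carries is not known here.

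**Figure D5:**
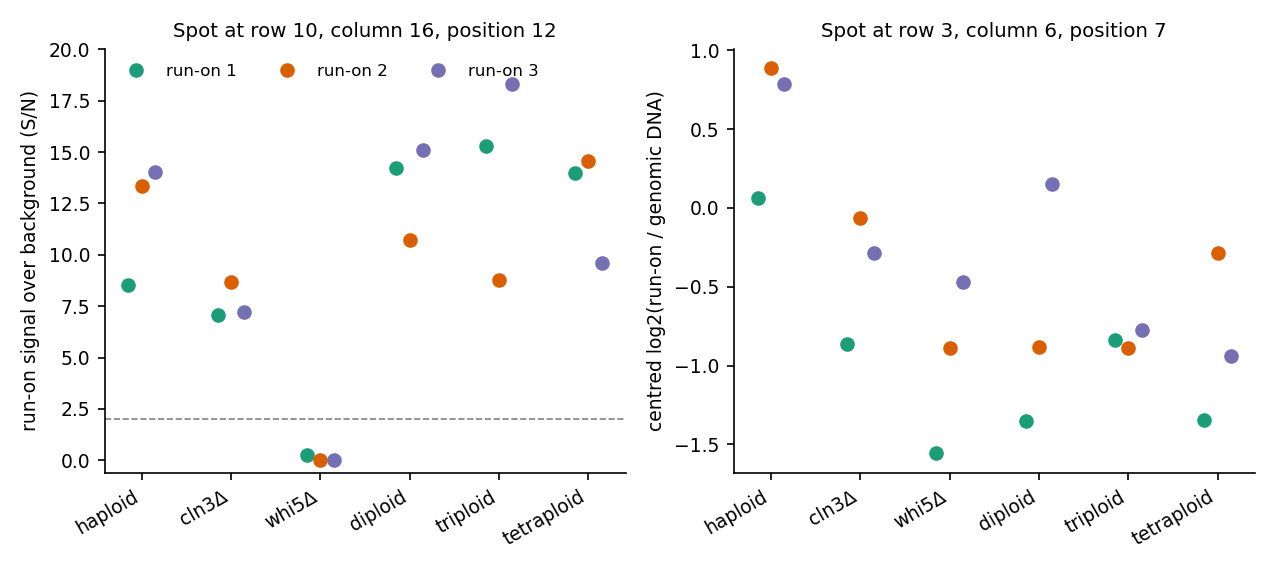
Left, run-on S/N of the spot at row 10, column 16, position 12 on all 18 arrays, with a dashed line at S/N 2. Right, centred log2 ratio of the spot at row 3, column 6, position 7 on the same arrays. The first spot lies at 0 to 0.235 in whi5Δ and at 7.06 to 18.3 elsewhere, and the second is highest in 2 of the haploid arrays.

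The other 3 called spots of this kind had smaller differences. One was well detected and in decile 9 of signal level. Its log2 ratio was 0.15, 0.32 and 0.20 in the haploid and -0.73, -0.92 and -1.01 in whi5Δ, with a gap between the groups much wider than either. The fitted difference was -1.11 (SE 0.12, limma, adjusted p = 0.0011). It differed from the other 4 strains together by -0.90 (SE 0.10, adjusted p = 0.00012). These 4 strains were not alike there. Against the haploid, the cln3 deletion differed by -0.52 (limma, adjusted p = 0.068), and the diploid, triploid and tetraploid by -0.09, -0.16 and -0.08. None of these was called. The other 2 spots were in decile 2, with S/N under 2 on all 3 whi5Δ arrays, so their fitted values of -2.43 and -1.15 rest on signals near background.

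No spot was called higher in whi5Δ in the limma fit as described. Without genomic DNA division 1 spot was called higher, in the upper 75% of spots by signal level 1, and with blocks for both run-on number and membrane 2. The 2 spots named on the higher side are those of smallest p among spots without overlap and with S/N of at least 2 throughout. At row 4, column 18, position 12, the log2 ratio was 0.30, 0.65 and 0.61 in the haploid and 0.88, 1.15 and 1.13 in whi5Δ. The difference was 0.54 (SE 0.17) and was not called (limma, adjusted p = 0.89). At row 9, column 3, position 8, the values were -0.80, -0.29 and -0.34 in the haploid and 0.19, 0.22 and -0.25 in whi5Δ. That difference was 0.53 (SE 0.17, adjusted p = 0.90). Both groups of values were separate at these spots, but separation of this kind was found at 7.71% of all spots.

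At the 88 spots called higher in whi5Δ than in the other 4 strains the median log2 difference was 1.02. At the same spots the median difference of whi5Δ from the haploid was 0.06, and it was above 0 at 49 of the 88. At the 47 spots called lower the median difference from the other 4 strains was -0.81, and that from the haploid was -0.42, below 0 at 45 of the 47. Both contrasts use the whi5Δ arrays, so they are given side by side only.

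Most spots detected on all 3 arrays of one strain were detected on all 3 of the other. An S/N of at least 2 on all 6 arrays was found for 4057 of 6144 spots (66.0%), and S/N was under 2 on all 6 for 839 (13.7%). Of the spots detected on all 3 haploid arrays, 96.8% were detected on all 3 whi5Δ arrays. The reverse share was 90.3%. Detection on all 3 arrays of one strain and on none of the other was found for 7 spots on the haploid side and 31 on the whi5Δ side. Most lay close to the threshold, with a median of the lowest S/N on the detecting side of 2.12 and 2.17. None of the 31 was called by limma, and 2 of the 7 were. At an S/N of at least 3 the counts were 3 and 47. At that threshold 95.7% of the spots detected on all 3 haploid arrays were detected on all 3 whi5Δ arrays, and the reverse share was 85.5%. The whi5Δ arrays also had the larger share of detected spots in all, as given above, and the part of that in the 31 was not tested.

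Differences by place on the membrane were small in the mean over run-on pairs, larger in single pairs, and mostly did not recur. DNA amount moved with the differences. Column medians of the mean log2 difference ran from -0.13 to 0.08, row medians from -0.07 to 0.02 and position medians from -0.06 to 0.03. Without the division by genomic DNA position medians ran from -0.22 to 0.11. In single run-on pairs 1, 2 and 3 the edges of the membrane moved in opposite directions. Row 1 lay at 0.18, -0.29 and -0.084, row 16 at -0.16, 0.20 and -0.033, and column 24 at 0.084, -0.33 and -0.20. The sign was the same in all 3 run-on pairs for 5 of 24 columns, 0 of 16 rows and 6 of 16 positions. Across spots, the log2 difference in ratio correlated with the log2 difference in genomic DNA signal between the membranes of the 2 strains with r = -0.42. The difference in run-on signal before division correlated with it with r = 0.43. Among the 2177 spots with S/N of at least 2 on all run-on arrays and membranes used, the values were -0.29 and 0.53. The ratio and the DNA difference share the genomic DNA values, and their part in single-spot differences was not tested.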

How the data were processed

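The authors deposited image quantification tables with a line per spot. Per the file headers, the deposited density is an intensity per area, the background-subtracted intensity is density minus background, with negative results replaced by 0 (checked on the values), and S/N is a score of signal over background. The sources used here do not name the imaging program. Per the series' design text, the authors normalised by MAD, which is not visible in these intensities.

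Spots were kept if each of 7 membranes had genomic DNA signal above 0 and at least 1 of 6 strains had run-on signal above 0 throughout. This left out 207 of 6144 spots. A remaining signal of 0 was treated as missing (80 values on the 6 arrays). Ratios were fitted with limma 3.58.1 (R 4.3.3; lmFit, eBayes) on all 18 arrays, with strain and run-on number as terms, and p-values were Benjamini-Hochberg adjusted over all spots. Run-on number, read from the deposited array names, was taken to pair the arrays, as set by the rule for this comparison. Deviations from strain means correlated for the same number (0.48, 0.18 and 0.38) and less for different numbers (-0.40 to 0.13). Such deviations sum to 0 within a strain, so the lower values for different numbers follow from the higher ones and are no separate support. The fit was tested on simulated data.

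Named spots are the 2 largest changes per direction among called spots without overlap whose S/N reached 2 on every array and membrane used, or those of smallest p where too few were called. Since no spot has a gene name, at most 2 places per direction are printed, and planned gene lists were not run. The strains, rules and lists were chosen with earlier results of these data known.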

Additional observations from a re-analysis of the deposited data

How the results depend on the processing

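The 9 calls depended on the fit. Without the replicate block (run-on number as pairing) 3 spots were called, and 3 were also among the 9. With intensities not corrected for background 4 were called, with membrane as the only fixed block 0 (139 spots at an unadjusted p under 0.05), with both blocks 5 (3 lower and 2 higher), with only the 2 strains 0 (445 unadjusted), and with run 1 of both strains left out 4. Leaving out 1 array gave between 3 and 5. Other scalings, floors, filters and moderation gave 6 to 10, with 1 higher both without genomic DNA division and in the upper 75% of spots. The share of spots bounded within 2-fold lay between 60.2% and 95.9%, between 75.8% and 78.1% with 1 array left out, and was 42.3% for a bound of 1.5-fold. The median of the brightest decile kept its sign throughout. It was -0.12 with MAD scaling, -0.070 with quantile normalisation and -0.13 without genomic DNA division. It was -0.040 without background correction and -0.23 to -0.10 with 1 array left out. The spread of the mean difference was 0.34 as an SD over spots, 0.26 with run 1 of both strains left out and 0.26 to 0.29 with 1 array left out, where fewer arrays are averaged. The difference in gain was -0.012 over all tested spots, -0.0049 with MAD scaling and 0.00087 after quantile normalisation. It was -0.054 without genomic DNA division and -0.07 to -0.01 with 1 array left out. The difference in overall level was 0.38 without genomic DNA division and -0.41 to 0.28 with 1 array left out. The difference between between-strain and within-strain r was between 0.0022 and 0.013 in the planned settings, and -0.0031 with run 1 of both strains left out.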
